A study of Mus musculus with 6 samples.

Results

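The intersectin gene Itsn1 and 7 further genes of the clathrin coat machinery (Itsn2, Eps15, Dnm2, Ap2a1, Ap2m1, Cltc and Sh3gl1) were followed in CD4 T cells with and without SAP, the small adaptor, product of Sh2d1a, through which receptors of the SLAM family signal. The 8 genes are taken from 18193 genes with a probe set assigned to 1 gene, and they are measured by 31 such probe sets, each described separately: 9 for Itsn1, 7 for Dnm2, 6 for Itsn2, 4 for Eps15, 2 for Cltc and 1 each for Ap2a1, Ap2m1 and Sh3gl1. Itsn1 was selected on its measured difference between the genotypes in these arrays, and the other 7 were named for their place in the same machinery with earlier results known, so the genotype difference is described here and not tested. Values are log2 expression levels summarised by RMA, and every difference is SAP-deficient minus WT on that scale.

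Both groups were naive CD4 T cells of mice transgenic for the OT-II T cell receptor, specific for ovalbumin peptide on MHC class II, sorted from spleen and lymph nodes as CD44lo CD62L+ CD25- cells. The WT group had 3 arrays and the SAP-deficient group 3 arrays. Cells of both groups were cultured with ovalbumin peptide, with splenocytes that lacked T cells and had been arrested by mitomycin C, with IL-6 and IL-21, and with antibodies against IFN-γ, IL-12, IL-4 and TGF-β, which defines the Tfh-like condition. Array numbers 1 to 3 follow accession order, and the labels state neither a pairing of equal numbers nor whether each array stands for its own mouse or culture. Limma's intervals and counts below therefore measure only the spread between these arrays, which may be technical. The age of the mice is not given in the sources used here.

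Clathrin-mediated endocytosis takes receptors and ligands from the plasma membrane into vesicles. The heterotetrameric adaptor AP-2 binds cargo and lipid, clathrin triskelia assemble on it into a cage, and dynamin pinches off the neck of the bud. Intersectins and Eps15 are scaffolds at the rim of the coat: their EH domains bind adaptor proteins, and the SH3 domains of intersectins bind dynamin and other partners. In T cells this route internalises, among others, the transferrin receptor and CTLA-4.

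In the SAP-deficient arrays the targeted transcript was low. Sh2d1a lay at 9.50, 8.52 and 9.39 in WT arrays 1 to 3 and at 5.47, 4.10 and 4.92 in SAP-deficient arrays 1 to 3, and whether its probe set falls within the targeted part was not analysed here. T cell markers were present on every array: all 9 measured genes of that list lay above the median of probe-set means (5.75), with a list mean of 11.52 to 11.80 in WT and 11.47 to 11.80 in SAP-deficient arrays. Of 5 genes that mark Tfh cells, Icos (11.40 to 11.95 in WT, 11.50 to 11.82 in SAP-deficient arrays) and Il21 (11.79 to 12.57 and 11.54 to 12.29) had bright probe sets, and Bcl6 and Pdcd1 were above that median in every array, whereas Cxcr5 ranged from 5.74 to 6.11 in WT and from 5.01 to 6.12 in SAP-deficient arrays, around the median. Arrays of equal number resembled each other across genotypes: after the genotype means were subtracted, the correlation over all probe sets was 0.52, 0.73 and 0.60 for numbers 1, 2 and 3, and -0.52 to -0.10 for unequal numbers. Because the means came from the same arrays, positive values for equal numbers force negative ones among unequal numbers. No array was a copy of another.

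Itsn1 (Entrez Gene 16443, chromosome 16) encodes intersectin 1, which is made as a short form and as a longer form that adds an exchange domain for the GTPase Cdc42. Its paralogue Itsn2 (Entrez Gene 20403, chromosome 12) encodes intersectin 2, with the same domain plan. The 250 bases before the annotated start of each are shown because the text sets these paralogues side by side; they are RefSeq sequence of GRCm38.p6 on the plus strand, chr16:91729121-91729370 for Itsn1 and chr12:4592758-4593007 for Itsn2. Capitals mark the GC box, the letters GGGCGG or their reverse complement CCGCCC.
Itsn1: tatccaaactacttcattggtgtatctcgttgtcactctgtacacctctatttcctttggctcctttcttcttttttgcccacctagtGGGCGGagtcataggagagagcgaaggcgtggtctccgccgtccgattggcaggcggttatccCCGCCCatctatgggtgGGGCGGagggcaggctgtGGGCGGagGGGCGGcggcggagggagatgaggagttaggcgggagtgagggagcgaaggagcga
Itsn2: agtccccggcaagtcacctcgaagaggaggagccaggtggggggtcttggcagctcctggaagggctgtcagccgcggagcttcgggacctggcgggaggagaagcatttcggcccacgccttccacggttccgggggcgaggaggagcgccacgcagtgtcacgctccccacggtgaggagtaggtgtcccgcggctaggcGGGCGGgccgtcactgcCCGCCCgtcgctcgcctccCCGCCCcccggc
The Itsn1 window holds 5 such matches and the Itsn2 window 3. Of 32851 RefSeq promoter windows of the same length, 32.7% hold at least 1 and 4.09% hold 4 or more. Among the other genes followed, Ap2a1 has 3 and Dnm2 has 1, while Eps15, Ap2m1, Cltc and Sh3gl1 have none. The expression arrays carry no measurement at these bases, and the matches only describe them.

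Itsn1 was not lower on all of its probe sets. On 4 of the 9, every SAP-deficient array lay below every WT array, with average differences from -1.19 to -0.32 log2 units, and on the other 5 the groups overlapped, with differences between -0.14 and 0.13. Over all 45037 probe sets, 3.13% had all SAP-deficient arrays below all WT arrays; in either direction the groups were apart for 5 of the 31 probe sets of the 8 genes and for 5.7% of all. Limma (genotype alone, Benjamini-Hochberg adjustment over all probe sets) called 0 of the 9 probe sets and 0 of the 31, beside 0 of 45037 (0%) overall. Even Sh2d1a, at -4.31, had an adjusted p of 0.12 in this limma fit. A count of 0 called, here and below, therefore says little about absence of change. At an unadjusted p under 0.05 stood 4 of the 31, the same 4 Itsn1 probe sets, beside 739 (1.64%) overall. Since Itsn1 was picked for this contrast, nothing is read from these counts.

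Probe set 1452338_s_at had the widest difference. It read 5.76, 5.32 and 5.28 in WT arrays 1 to 3 and 3.98, 4.50 and 4.30 in SAP-deficient arrays 1 to 3. The lowest WT array thus stood 0.78 above the highest SAP-deficient array. The means were 5.45 ± 0.27 and 4.26 ± 0.26 (SD, n = 3 each), a difference of -1.19 (95% interval -1.60 to -0.78), or a 2.28-fold higher level in WT. Only 3 of the 45037 probe sets (0.00666%) were lower by 1 log2 unit or more. This one came second after that of Sh2d1a, and the other, for the small GTPase gene Rab4a, was at -1.07. Itsn1 was picked for this difference, so nothing is read from its place among them. Array by array, equal numbers differed by -1.78, -0.81 and -0.98.

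The brightest Itsn1 probe set, 1435885_s_at, showed a smaller difference in the same direction. Its WT values were 7.69, 7.57 and 7.56 and its SAP-deficient values 7.03, 7.23 and 7.20, so that the 3 WT arrays lay close together and all above the SAP-deficient ones. The difference was -0.45 (-0.74 to -0.17), a 1.37-fold higher level in WT, and it was -0.66, -0.34 and -0.36 for equal numbers. This is the only one of the 4 whose mean lay above the median of probe-set means.

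The remaining pair of lower probe sets were dim. Probe set 1425899_a_at read 4.78, 4.35 and 4.82 in WT and 4.14, 4.05 and 4.13 in SAP-deficient arrays, a difference of -0.54 (-0.86 to -0.23). WT array 2 stood nearest to the SAP-deficient arrays. Probe set 1435884_at read 2.92, 2.91 and 2.90 in WT and 2.58, 2.68 and 2.50 in SAP-deficient arrays, a difference of -0.32 (-0.50 to -0.14). Its mean was at percentile 4.0 of all probe sets, near the floor of the scale, where RMA compresses differences.

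**Figure D1:**
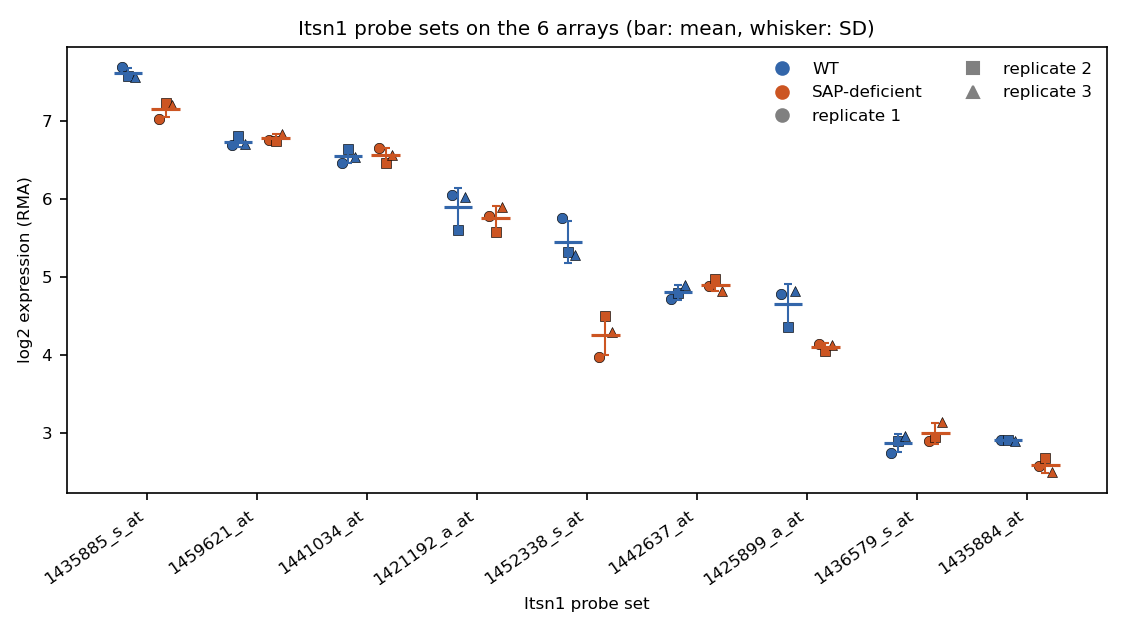
Levels of the 9 Itsn1 probe sets (x axis, ordered by mean level) on the 6 arrays, as log2 RMA values (y axis); blue is WT, orange SAP-deficient, marker shapes give the replicate number, bars the mean of 3 arrays and whiskers the SD. The groups are apart for 1435885_s_at, 1452338_s_at, 1425899_a_at and 1435884_at and overlap for the other 5.

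The other 5 Itsn1 probe sets did not show this separation. Probe set 1459621_at was at 6.69, 6.80 and 6.71 in WT and at 6.75, 6.75 and 6.84 in SAP-deficient arrays. Probe set 1441034_at was at 6.47, 6.64 and 6.54 in WT and at 6.65, 6.47 and 6.56 in SAP-deficient arrays. In both, the array-to-array spread covered the genotype difference, which was 0.05 (-0.22 to 0.31) and 0.01 (-0.27 to 0.29). These intervals leave out a difference as large as the -0.45 of the brightest probe set. For 1421192_a_at the values were 6.05, 5.60 and 6.03 in WT and 5.79, 5.57 and 5.89 in SAP-deficient arrays, a difference of -0.14 (-0.51 to 0.23). Each SAP-deficient array of that probe set was below the WT array of equal number, by -0.26, -0.02 and -0.14, although the groups overlapped. Probe set 1442637_at was at 4.71, 4.80 and 4.90 in WT and at 4.89, 4.97 and 4.82 in SAP-deficient arrays (difference 0.09, -0.14 to 0.33). Probe set 1436579_s_at, near the floor, was at 2.75, 2.89 and 2.97 in WT and at 2.90, 2.94 and 3.15 in SAP-deficient arrays (0.13, -0.10 to 0.36). Both leaned to the SAP-deficient side within overlapping groups.

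The 4 lower probe sets followed each other across the 6 arrays. Their 6 pairwise Pearson correlations ran from 0.80 to 0.99, a description that includes the genotype difference they share. The closest pair was 1435885_s_at and 1452338_s_at. Between these 4 and the other 5 probe sets the 20 correlations ran from -0.69 to 0.74, and 4 were above 0, all of them with 1421192_a_at. In this array's naming, the ending _s_at marks probes shared by several transcripts, which can belong to different genes, and _a_at marks probes shared by transcripts of one gene. The lower probe sets include both endings and the plain _at ending, as do the other 5. Which exons of Itsn1 each probe set covers was not analysed here.

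Probe sets of one gene often gave unequal differences. Among 856 genes with 5 or more single-gene probe sets, the gap between the highest and the lowest difference of a gene's probe sets had a median of 0.23 and a 95th percentile of 0.49. For Itsn1 the gap was 1.32, the widest of the 856. Since Itsn1 was picked for its genotype difference, which enters this gap, nothing is read from that rank. A gap can also only widen as probe sets are added, and Itsn1 had 9. Itsn2 had a gap of 0.38 (111th widest) and Dnm2 one of 0.10 (804th).

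**Figure D2:**
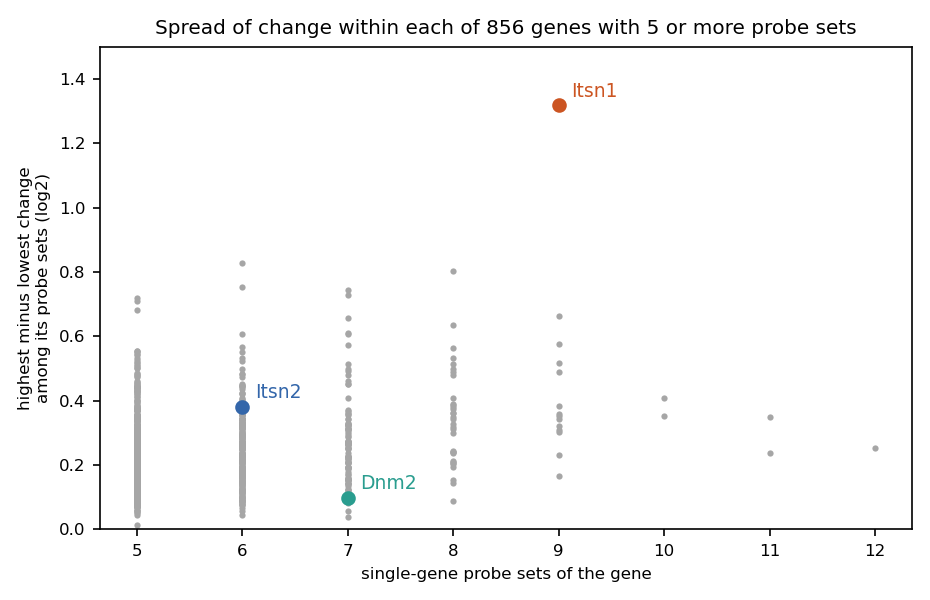
Highest minus lowest genotype difference among the probe sets of a gene (y axis, log2) against its number of single-gene probe sets (x axis), for 856 genes with 5 or more; each grey point is a gene. Itsn1 stands at 1.32 with 9 probe sets, above every other gene, while Itsn2 (0.38) and Dnm2 (0.10) lie within the bulk. Itsn1 was picked for its genotype difference, which enters its gap.

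Genes that neighbour Itsn1 were each read on their brightest probe set. The 10 measured genes on each side of it in the RefSeq order of chromosome 16, a set chosen after the Itsn1 values were seen, had a median of 0.01 and ran from -0.13 (Clic6) to 0.24 (Smim11), with 13 of 20 higher, 0 called by limma and 0 at an unadjusted p under 0.05. The adjacent genes Cryzl1 and Atp5o were at -0.13 ± 0.22 (SE) and 0.15 ± 0.08. The brightest Itsn1 probe set, at -0.45, was the 44th lowest of 45037, so 20 genes without so low a difference say little. A part of the chromosomal region in the Itsn1 values was not tested.

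Marker lists of other cells were set beside Itsn1. All 10 measured B cell genes and all 6 measured MHC class II genes were lower on average in SAP-deficient arrays, and limma called 0 of these 16, with 0 at an unadjusted p under 0.05. The summed linear level of the B cell list ran from 572.6 to 756.2 in WT and from 485.8 to 614.1 in SAP-deficient arrays, and that of the MHC class II list from 2747 to 3467 and from 2406 to 3389, so the groups overlapped. By equal numbers, the list means differed by -0.18, -0.04 and -0.42 (B cells) and by -0.11, -0.02 and -0.46 (MHC class II). Of the 10 B cell genes, 6 had a mean level above the median of probe-set means, from Cd79a at 5.77 to Ebf1 at 7.02. Of the 6 MHC class II genes 5 did, from H2-DMa at 7.21 to Cd74 at 10.04, while Ciita at 4.87 lay below it. Macrophage and dendritic cell genes were higher in 5 of 9, neutrophil, mast cell and platelet genes in 2 of 8 (list means differing by -0.235, -0.062 and -0.07 by number), NK and CD8 T cell genes in 4 of 5 and stromal and endothelial genes in 2 of 7, with summed levels that overlapped between the groups for each list. Cell-cycle genes were higher in 11 of 11, and their mean differed by -0.18, -0.06 and 0.55 by number. The part of these cells in the Itsn1 values was not tested, and in such bulk RNA fewer cells of a type cannot be told apart from less RNA per cell.

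Of the 6 Itsn2 probe sets 4 were higher and 2 lower on average, and none had all SAP-deficient arrays below all WT arrays. Its brightest, 1435023_at, was at 9.41, 9.31 and 9.23 in WT and at 9.29, 9.44 and 9.23 in SAP-deficient arrays, with a difference of 0.00236 and a 95% interval of -0.26 to 0.26. The groups overlapped fully. Probe set 1445375_at was the only one of the 22 probe sets outside Itsn1 whose groups did not overlap, beside 2.56% of all probe sets with every SAP-deficient array above every WT array. It read 7.54, 7.41 and 7.51 in WT and 7.62, 7.72 and 7.57 in SAP-deficient arrays, and the groups were 0.02 apart. The difference was 0.15 (-0.13 to 0.43).

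The other Itsn2 probe sets varied more between arrays than between genotypes. Probe set 1423184_at had the largest difference, 0.29 (-0.28 to 0.87), and it came from WT array 3, which read 6.04 against 6.99 and 6.85 in the other WT arrays and 6.70, 7.09 and 6.98 in the SAP-deficient arrays. Without that array the difference was 0.0008. Probe set 1431772_a_at was likewise lowest in WT array 3, at 7.88 against 8.34 and 8.31, with 8.37, 8.42 and 8.25 in SAP-deficient arrays (0.17, -0.19 to 0.53), and without that array its difference was 0.02. Probe set 1446735_at differed by -0.005 (-0.30 to 0.29). Probe set 1446595_at differed by -0.09 (-0.53 to 0.36), with WT array 3 (5.63) and SAP-deficient array 2 (5.61) standing above the remaining 4 arrays (5.06 to 5.24).

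Eps15 (Entrez Gene 13858), the scaffold that binds AP-2 and ubiquitinated cargo, did not differ by more than its spread on any of its 4 probe sets. The brightest, 1419252_at, was at 10.04, 10.19 and 9.95 in WT and at 10.06, 10.21 and 10.01 in SAP-deficient arrays. Array 2 was the highest of both genotypes, and the difference was 0.03 (-0.22 to 0.28). Probe set 1419251_at was at 9.63, 9.35 and 9.46 in WT and at 9.53, 9.53 and 9.50 in SAP-deficient arrays, with a difference of 0.04 (-0.22 to 0.30). The dimmer 1430152_at and 1440729_at were at -0.05 (-0.47 to 0.38) and -0.03 (-0.35 to 0.29), and on both the difference was below 0 at number 1 and above 0 at number 2.

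The AP-2 subunits were close between the genotypes. Ap2m1 (Entrez Gene 11773) encodes the µ2 subunit, which binds tyrosine-based sorting signals of cargo. It was at 10.84, 10.98 and 10.62 in WT and at 10.79, 10.89 and 10.69 in SAP-deficient arrays, so that array 3 was the lowest of each genotype. The difference was -0.03 (-0.29 to 0.23). Ap2a1 (Entrez Gene 11771) encodes an α subunit, which carries the appendage that recruits other coat proteins. It was at 7.90, 7.84 and 7.91 in WT and at 7.88, 7.70 and 7.79 in SAP-deficient arrays. SAP-deficient array 1 lay among the WT arrays and the other 2 below them, and the difference was -0.09 (-0.37 to 0.18).

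Cltc (Entrez Gene 67300), the clathrin heavy chain that forms the legs of the triskelion, varied little. Probe set 1454626_at was at 11.46, 11.29 and 11.46 in WT and at 11.41, 11.32 and 11.41 in SAP-deficient arrays. Array 2 was the lowest of both genotypes, and the difference was -0.02 with a 95% interval of -0.20 to 0.16, the narrowest of all 31 apart from that of Itsn1 1435884_at. Probe set 1439094_at was at 8.31, 8.01 and 8.03 in WT and at 8.17, 8.09 and 7.91 in SAP-deficient arrays (-0.06, -0.38 to 0.26).

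Dnm2 (Entrez Gene 13430) encodes dynamin 2, the widely expressed GTPase that cuts the vesicle neck. All 7 of its probe sets had a mean difference below 0, but the differences were small, from -0.11 to -0.01, and the groups overlapped on each. Probes of one gene share their RNA, and 3 of these probe sets are of the _x_at kind, whose probes can cross-hybridise, so the 7 are not independent. The brightest, 1423629_at, was at 8.56, 8.76 and 8.61 in WT and at 8.56, 8.53 and 8.73 in SAP-deficient arrays (-0.03, -0.32 to 0.25). On 1425136_x_at and 1425135_a_at, array 3 was the lowest of both genotypes: 8.05 and 8.01 on the first, and 7.55 and 7.59 on the second, in WT and SAP-deficient arrays. Their differences were -0.06 and -0.07.

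Sh3gl1 (Entrez Gene 20405) encodes endophilin A2, a curved BAR-domain protein that binds dynamin and synaptojanin through its SH3 domain. It was at 9.20, 9.20 and 9.38 in WT and at 9.25, 9.33 and 9.49 in SAP-deficient arrays. Every SAP-deficient array was above the WT array of equal number, by 0.05, 0.13 and 0.12, while the groups overlapped. The difference was 0.10 (-0.17 to 0.37).

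Outside Itsn1, the 22 probe sets thus had differences from -0.11 to 0.29 with a median of -0.03, 7 higher and 15 lower. The median over all 45037 probe sets was 0.003. None of the 22 had an unadjusted p under 0.05 in the limma fit. All 22 intervals contain 0, and they reach at most from -0.53 to 0.87.

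**Figure D3:**
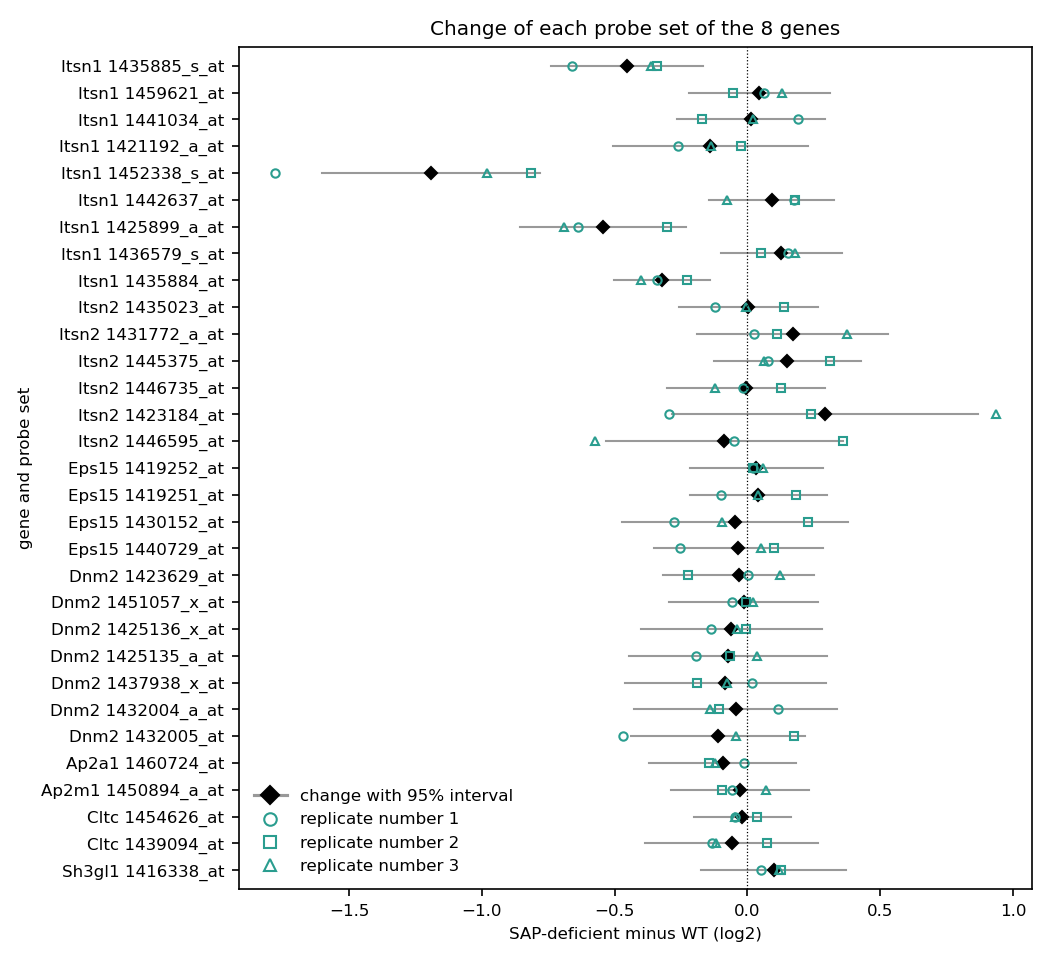
Genotype difference of each of the 31 probe sets (y axis), in log2 units (x axis); black diamonds are the limma estimate, grey lines its 95% interval, and open green markers the SAP-deficient minus WT difference of arrays with equal number. The 4 Itsn1 probe sets at -0.32 to -1.19 have all 3 markers below 0 and intervals apart from 0, and the intervals of the remaining 27 contain 0.

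The wider endocytic machinery was read from 8 lists of 82 genes, chosen with earlier results of these data known, of which 75 had a single-gene probe set; each gene is represented by its brightest. Of the 75, 47 were higher and 28 lower (62.7% higher, beside 53.3% of all 18193 genes), with a median of 0.01 in both cases. Limma called 0 of the 75, and 1 of them (Igf2r) had an unadjusted p under 0.05, beside 239 of all genes (1.31%). The groups did not overlap for 5 of them (6.67%, beside 5.32% of all genes). None was as low as the brightest Itsn1 probe set. That probe set was the 44th lowest of 45037, and Itsn1 was picked for its difference, so nothing is read from this.

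Other AP-2 subunits and their regulators were higher in 6 of 7, with a median of 0.05, from the regulator gene Necap1 at -0.02 ± 0.15 (SE) to the AP-2 kinase gene Aak1 at 0.14 ± 0.18. The subunit genes Ap2a2, Ap2b1 and Ap2s1 were at 0.09, 0.05 and 0.09. Among clathrin light chains and other dynamins 3 of 5 were higher (median 0.01), from Dnm3 at -0.16 ± 0.12 to the mitochondrial fission gene Dnm1l at 0.03 ± 0.11, and the light chain genes Clta and Cltb were at 0.03 and 0.01. Coat initiators and EH-domain genes were higher in 4 of 9 (median -0.005), from Fcho2 at -0.07 ± 0.19 to Fcho1 at 0.10 ± 0.14, both membrane-bending initiators. Their spans were narrow, and no gene of these 3 lists had groups apart.

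Cargo adaptors covered the widest span. They were higher in 9 of 13 (median 0.004), from Dab2 at -0.35 ± 0.23, an adaptor for lipoprotein receptors, to the β-arrestin gene Arrb1 at 0.36 ± 0.33. Dab2 was at 5.75, 5.42 and 6.36 in WT and at 5.72, 5.30 and 5.46 in SAP-deficient arrays, so its difference came mainly from WT array 3. Arrb1 was at 9.03, 8.08 and 8.19 in WT and at 9.31, 8.22 and 8.87 in SAP-deficient arrays, and array 1 was the highest of both genotypes. The stonin genes were the ones with groups apart, Ston1 higher at 0.08 and Ston2 lower at -0.17. BAR-domain genes were higher in 8 of 14 (median 0.04), from Fnbp1l at -0.15 ± 0.21 to the endophilin gene Sh3gl3 at 0.26 ± 0.31.

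Enzymes of uncoating and phosphoinositide turnover were higher in 5 of 10 (median 0.004), from the phosphatase gene Ocrl at -0.14 ± 0.33 to the synaptojanin gene Synj2 at 0.19 ± 0.45. The uncoating chaperone gene Hspa8 was at 12.95, 12.96 and 12.96 in WT and at 12.92, 12.92 and 12.86 in SAP-deficient arrays, apart but only 0.06 lower on average. Actin and signalling partners of intersectins were higher in 8 of 12 (median 0.01), from the cortactin gene Cttn at -0.17 ± 0.32 to the Ras exchange factor gene Sos1 at 0.12 ± 0.23. Cdc42, the GTPase that the long form of intersectin 1 activates, was at 12.17, 12.12 and 12.02 in WT and at 12.20, 12.17 and 12.21 in SAP-deficient arrays (0.10 ± 0.06). Every SAP-deficient array lay narrowly above every WT array, the nearest at 12.174 against 12.166. The Cdc42 effectors Wasl and Was were each at 0.01.

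Among cargo receptors, 4 of 5 were higher (median 0.06). Igf2r, the receptor for mannose-6-phosphate and insulin-like growth factor II, was at 8.76, 8.83 and 8.80 in WT and at 8.94, 9.16 and 9.08 in SAP-deficient arrays, with every SAP-deficient array above every WT array (0.27 ± 0.11; adjusted p = 1.00, limma). The transferrin receptor gene Tfrc was at 0.07 ± 0.08. Ctla4, which AP-2 removes from the surface, was at 12.15, 10.14 and 11.96 in WT and at 12.05, 10.02 and 11.61 in SAP-deficient arrays, so that it followed the array number far more than the genotype (-0.19 ± 0.63).

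**Figure D4:**
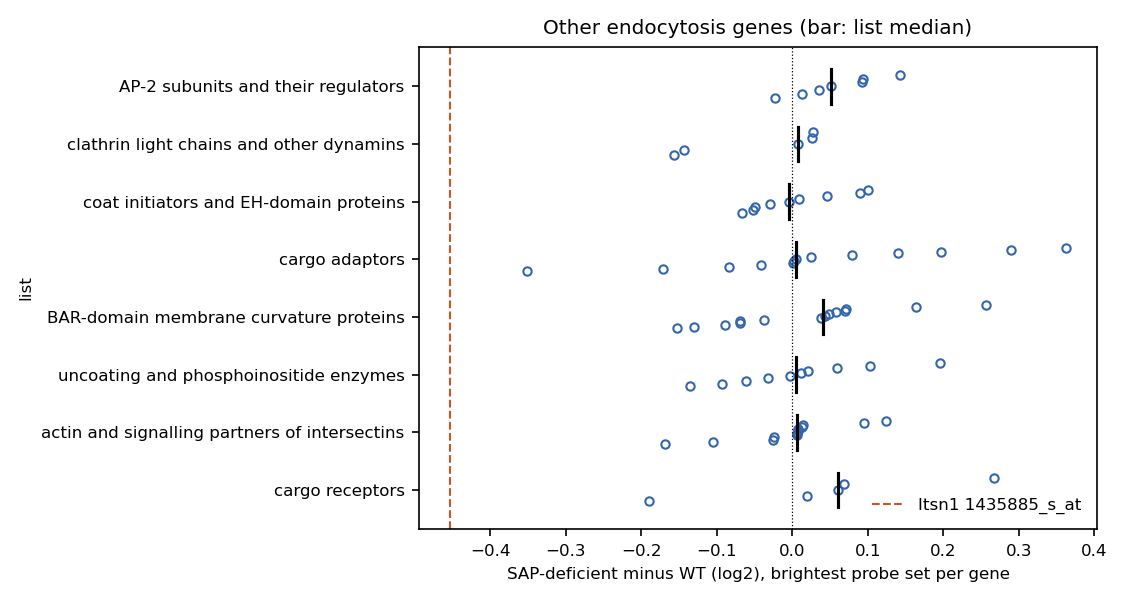
SAP-deficient minus WT difference (x axis, log2) of the brightest probe set of 75 further endocytosis genes in 8 lists (y axis); open circles are genes and black bars list medians. The medians lie between -0.005 and 0.06, and every gene lies to the right of the brightest Itsn1 probe set, drawn as a dashed line at -0.45. Itsn1 was picked for its genotype difference.

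The genes most like Itsn1 across the arrays were the same 5 for its brightest probe set and for the one with the widest difference, 2 probe sets that themselves correlated at 0.99. Among 10933 other genes above the median level, the highest Pearson correlations over the 6 arrays with 1435885_s_at were those of the non-coding RNA gene Chaserr (0.98), Arf4 (0.96), Lztfl1 (0.96), Eef1a2 (0.96) and the chemokine gene Xcl1 (0.95). With 1452338_s_at they were 0.99 for Chaserr, 0.96 for Xcl1 and 0.95 to 0.96 for the other 3. Their own differences were -0.14 for Chaserr, -0.12 for Arf4, -0.11 for Lztfl1, -0.26 for Eef1a2 and -0.59 for Xcl1. The correlations include the genotype difference for which Itsn1 was picked, and all 5 genes were lower on average in SAP-deficient arrays. With 6 arrays and this many genes, correlations of such size describe these arrays alone.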

How the data were processed

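RNA was measured on 6 (3 WT, 3 SAP-deficient) Affymetrix mouse whole-genome arrays. The deposited values are log2 levels of 45101 probe sets, made by the authors with Affymetrix Expression Console and RMA per the submitters' processing notes; the versions, build and annotation were not given in the sources used here. This method equalises the arrays' distributions and compresses differences of dim probe sets. Array medians ran from 5.73 to 5.77.

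The 64 control probe sets were left out. Of the 45037 tested, the platform annotation gives 1 gene for 34945, several for 932 and none for 9160, and 34741 were matched to RefSeq symbols. Limma (version 3.58.1, R version 4.3.3, lmFit on genotype, eBayes with intensity trend) was fitted to all. Benjamini-Hochberg adjustment ran over all, with a threshold of 0.05. The fit was also run on simulated data with independent noise on each array. That run does not cover the likeness between arrays of equal number. The number of arrays limits the precision.

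The 8 genes and the lists were chosen with earlier results of these data known. Named were every probe set of the 8 genes, Sh2d1a, the highest and lowest gene of each list, and the 5 genes most correlated with the brightest and with the most different Itsn1 probe set; neighbours, Tfh and other list genes were added after values were seen. Alternatives were other variance models, filters on dim probe sets, normalizations, array weights, the replicate number as a block, another gene summary and leaving out each array.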

Additional observations from a re-analysis of the deposited data

How the results depend on the processing

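With the replicate number as a block (replicate block), which the labels do not state as a pairing, limma called 1 probe set, that of Sh2d1a, in place of 0, and 0 of the 31 probe sets of the 8 genes; at an unadjusted p under 0.05 the counts were 2562 of 45037 and 4 of 31. Every other alternative called 0 probe sets. The 4 lower Itsn1 probe sets were below 0 in every alternative in which they were measured, with differences from -1.31 to -0.28, and 17 of the 22 probe sets outside Itsn1 turned sign in at least 1. Leaving out single arrays could not turn the 4, since their SAP-deficient arrays all lay below their WT arrays. The variance models, the filters and the block leave a difference as it is. Nothing is therefore read from the kept sign. The count of 4 lower probe sets with groups apart, for Itsn1 and for all 8 genes, was 1 when probe sets under the median level were left out and 0 when those under the 75th percentile were, since these filters remove the dim ones. For all 8 genes it ran from 4 to 8 when single arrays were left out, and was 8 without WT replicate 2. The 1 higher probe set with groups apart became 0 with the 75th percentile filter and after centring on array medians, and 1 to 4 without single arrays (2 without WT replicate 1, WT replicate 2 or SAP-deficient replicate 3, and 4 without WT replicate 3). Fewer arrays make separation easier. The median of the 75 further endocytosis genes ran from -0.022 (without WT replicate 3) to 0.028 when single arrays were left out, and the number higher from 34 to 48. Of the 8 list medians, 1 kept its sign in every alternative. Of the 9 Itsn1 probe sets, 5 lie under the median level, the one with the widest difference included.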
